A study of Arabidopsis thaliana and Boechera depauperata with 12 samples.

Results

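The genes described here are the *B. depauperata* genes that were raised by both an acquired and a basal heat stress. They were chosen from the measured values. Each count was divided by its library's total and multiplied by 1000000 (CPM), and a gene was kept when its lowest CPM in the 4 heat libraries was at least 10 and at least 4 times its highest CPM in the 2 control libraries. The rule kept 80 of 27416 genes (0.292 %). Acquired heat stress (A/HS) consisted of 1 h at 38 °C, 1 h of recovery at 22 °C and 3 h at 43 °C, basal heat stress (B/HS) of 3 h at 38 °C, and control plants stayed at 22 °C. Each regime had 2 libraries in *Boechera depauperata*, a thermotolerant wild mustard of California (A/HS EW13 and EW14, B/HS EW11 and EW12, control EW9 and EW10), and 2 libraries in *Arabidopsis thaliana* (A/HS W5 and W6, B/HS W3 and W4, control W1 and W2), 12 in all. The 2 libraries of a regime were biological replicates prepared separately from germination onwards.

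The *B. depauperata* reads were counted on the genes of its relative *B. stricta*, and the identifiers beginning with Bostr are those of that species. *Boechera depauperata* is polyploid, so several of its gene copies can share 1 identifier. A CPM is not corrected for gene length, so it compares 1 gene between libraries and does not rank genes by transcript number.

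Plants answer heat through heat shock factors, transcription factors that bind heat shock elements, short inverted repeats of the letters GAA upstream of their targets. The targets include chaperones such as the HSP70, HSP90, HSP60 and small heat shock protein families, which hold or refold damaged proteins, and the co-chaperones that drive them. Basal thermotolerance is survival of a first exposure to heat, and acquired thermotolerance is survival of a more severe heat after a mild pretreatment.

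An *A. thaliana* gene could be named for 6 of the 80 genes (7.5 %), close to the 6.18 % of the 27416 identifiers that could be paired at all. The pairs came from the study's list of spliced genes, so they cover only genes listed there. Of the 6, 2 are splicing factors: Bostr.25219s0220 is paired with *SR45a* (AT1G07350) and Bostr.19424s1133 with *SCL33* (AT1G55310), both RNA-binding proteins of the serine/arginine-rich class. Bostr.22252s0175 is paired with *ATERDJ3A* (AT3G08970), a DnaJ-type co-chaperone of the endoplasmic reticulum, and Bostr.26833s0438 with AT5G58110, annotated for chaperone binding and ATPase activation. Bostr.20055s0069 is paired with AT5G11680, annotated as a classical AGP protein, and Bostr.30275s0442 with AT4G19645, which has a TLC lipid-sensing domain. The other 74 genes are given by identifier only.

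The 250 bases upstream of the annotated start of each of these 6 *A. thaliana* genes were read from RefSeq's TAIR10.1 genome and searched for the 2 pairings of heat shock element units, GAANNTTC and TTCNNGAA, each of which reads the same on both strands. TTCNNGAA was found once upstream of *SCL33* and once upstream of *ATERDJ3A*, and neither pairing was found in the other 4 windows. Over the windows of 27443 protein-coding genes, 7.68 % held TTCNNGAA, 9.55 % held GAANNTTC and 16.1 % held either. No window of the 6 held 3 consecutive units, a pairing extended by a further unit at the same spacing on either strand, which 0.386 % of all windows did. A match is a run of letters and not a measured binding site. The 2 windows with a match are printed from 5′ to 3′ on the gene's strand, with the match in capitals, to show where it lies; the first is chr1:20629448-20629697 on the plus strand and the second chr3:2737047-2737296 on the plus strand.
SCL33: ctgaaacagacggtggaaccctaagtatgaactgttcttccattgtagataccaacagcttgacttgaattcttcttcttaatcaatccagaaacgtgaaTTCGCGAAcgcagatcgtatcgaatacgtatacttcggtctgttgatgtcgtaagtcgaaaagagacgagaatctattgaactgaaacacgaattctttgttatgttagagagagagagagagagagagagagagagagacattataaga
ATERDJ3A: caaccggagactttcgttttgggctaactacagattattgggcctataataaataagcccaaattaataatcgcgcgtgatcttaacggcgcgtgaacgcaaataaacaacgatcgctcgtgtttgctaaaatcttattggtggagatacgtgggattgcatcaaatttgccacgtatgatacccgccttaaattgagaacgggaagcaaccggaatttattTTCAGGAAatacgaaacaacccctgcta

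Before the heat values, 2 facts on the libraries bear on them. The *B. depauperata* libraries held between 3869082 (EW14) and 7666352 (EW10) counts, and 1 gene took between 6.58 % and 16.2 % of a library. The factors by which edgeR's TMM method rescaled the library totals were 1.22 and 1.32 in control, between 0.931 and 0.979 in EW11, EW12 and EW13, and 0.714 in EW14. On library-total CPM the median tested gene was therefore lower after heat than in control, by a log2 ratio of -0.59 for A/HS and -0.40 for B/HS. The medians were 0.00 for both on the TMM scale, and between A/HS and B/HS the library-total shift was -0.18. The rule used library-total CPM, and each fold change below names its scale. The tissue is labelled root, a label that the marker genes of *A. thaliana* did not match. In *A. thaliana*, 18 root marker genes together took between 9.71 and 36.6 CPM of a library and 1 of them had no more than 3 counts in any library, whereas 23 marker genes of green leaf took between 9600 and 17400 CPM, with 1 of them at 0 throughout. Genes of the organelles took between 58.1 % and 74.9 % of the counts in the *A. thaliana* libraries, and library-total CPM includes them. The TMM factors of the *A. thaliana* controls were 0.832 in W1 and 1.33 in W2. No root marker could be paired in *B. depauperata*. The 4 leaf markers that could be paired summed to 5920 and 3820 CPM after A/HS, 7220 and 9240 CPM after B/HS, and 11800 and 10300 CPM in control. On library-total CPM the leaf marker sum was thus lower in all 4 heat libraries. The median tested gene was also lower after heat on that scale, and the sum was not taken on the TMM scale. A fall of the leaf markers beyond that of the median gene is therefore not shown for B/HS. The part of the leaf markers in the changes of the 80 genes was not tested. In libraries of whole tissue, fewer cells of a type and less RNA per cell cannot be told apart.

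The 80 genes together took 8.99 % and 12.6 % of the counts after A/HS, 11.9 % and 8.35 % after B/HS, and 0.497 % and 1.21 % in control. All 4 heat libraries lay above both controls, which the rule required of every gene, and the controls differed from each other. The mean CPM over the 4 heat libraries ran from 21.5 to 8733, with a median of 358. By gene, the median of the group means was 404 CPM after A/HS, 309 CPM after B/HS and 34.9 CPM in control. On library-total CPM, A/HS exceeded control by 5.204-fold to 38.0-fold (median 12.6), and B/HS exceeded control by 4.90-fold to 17.3-fold (median 10.4). No gene of the 80 was at 0 in a control library: the lowest control count was 5 and the lowest heat count 79, so the ratios do not rest on empty controls.

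**Figure D1:**
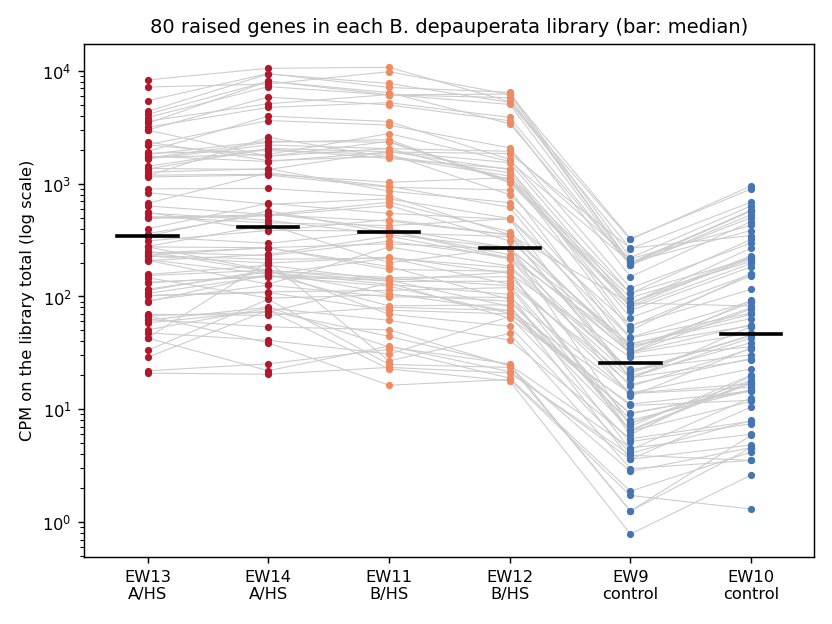
CPM on the library total (log scale) of the 80 raised genes in each *B. depauperata* library, with A/HS at the left, B/HS in the middle and control at the right. Each point is a gene, grey lines join a gene across libraries and black bars are medians; the genes sum to between 8.35 % and 12.6 % of the counts in the heat libraries, against 0.497 % and 1.21 % in the controls.

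The 80 genes included some of the largest contributors to the heat libraries. Of them, 28 averaged at least 1000 CPM in heat, 37 between 100 and 1000 CPM and 15 less than 100 CPM. In the ordering of all genes by mean CPM, 29 of the 80 stood among the top 100 in heat and 0 did so in control. The rule put every heat value above control, so a higher place in heat is in part built in. The 10 highest held 58.3 % of the counts of the 80 genes in the heat libraries. Bostr.2392s0026, which could not be named, was 6th in heat and 118th in control. It had 8304 and 10536 CPM after A/HS, 10747 and 5345 CPM after B/HS, and 320.4 and 955 CPM in control. Both control values stood apart from all heat values, but the 2 B/HS libraries differed more from each other than the 2 A/HS libraries did.

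Bostr.7305s0058, 7th in heat and 124th in control, had 7188 and 7645 CPM after A/HS, 9836 and 6172 CPM after B/HS, and 326 and 895 CPM in control. Bostr.25463s0294, 8th in heat and 170th in control, had 5435 and 9462 CPM after A/HS, 7126 and 6466 CPM after B/HS, and 220.4 and 635 CPM in control. In both genes the values of the 2 heat regimes overlapped, and the same held for Bostr.27991s0212, Bostr.26833s0265 and Bostr.3359s0037, the 9th to the 11th. Bostr.27991s0212 had 4369 and 9376 CPM after A/HS, 7725 and 5259 CPM after B/HS, and 265 and 686 CPM in control. Bostr.26833s0265 had 4117 and 8094 CPM after A/HS, 6133 and 6228 CPM after B/HS, and 196 and 572 CPM in control. Bostr.3359s0037 had 3856 and 7252 CPM after A/HS, 6118 and 5784 CPM after B/HS, and 200.2 and 575 CPM in control. In each of these 6 genes the control library EW10 was above EW9, and the A/HS library EW14 was above EW13.

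The widest separations were in genes below those just described in heat level, although Bostr.0124s0044 and Bostr.9638s0086 still averaged at least 1000 CPM in heat. By class, the fold over control did not fall with level. On library-total CPM its median was 14.2 after A/HS and 12.8 after B/HS in the genes of at least 1000 CPM. In those of less than 100 CPM it was 9.73 and 7.7. Heat CPM enters both the class and the fold, and the rule used it, so nothing is read from this relation. Bostr.0124s0044 had 1147 and 1191 CPM after A/HS, 928 and 880.1 CPM after B/HS, and 34.3 and 88.4 CPM in control, so its lowest heat value was 9.95 times its highest control value. Bostr.22252s0106 had 278 and 432 CPM after A/HS, 199 and 271 CPM after B/HS, and 7.04 and 20.1 CPM in control, a ratio of 9.90. Bostr.13129s0232 had 233 and 270.3 CPM after A/HS, 173 and 167 CPM after B/HS, and 6.42 and 17.1 CPM in control, a ratio of 9.79. In these 3 genes both A/HS libraries lay above both B/HS libraries. Bostr.25463s0293 had the lowest heat value of the 80, with 67.3 and 38.8 CPM after A/HS, 16.3 and 18.4 CPM after B/HS, and 1.72 and 1.30 CPM in control, a ratio of 9.49. The identifier of this gene is next to that of Bostr.25463s0294, the only such pair among the 80, and the 2 differ in that only Bostr.25463s0293 had A/HS clear of B/HS. Bostr.9638s0086 had 1350 and 2037 CPM after A/HS, 1671 and 1354 CPM after B/HS, and 54.3 and 153 CPM in control, a ratio of 8.84. Bostr.7867s0141 had 102 and 109.8 CPM after A/HS, 113 and 119.7 CPM after B/HS, and 6.42 and 11.7 CPM in control, a ratio of 8.71. It was the only one of these 6 genes with both A/HS values below both B/HS values on this scale.

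**Figure D2:**
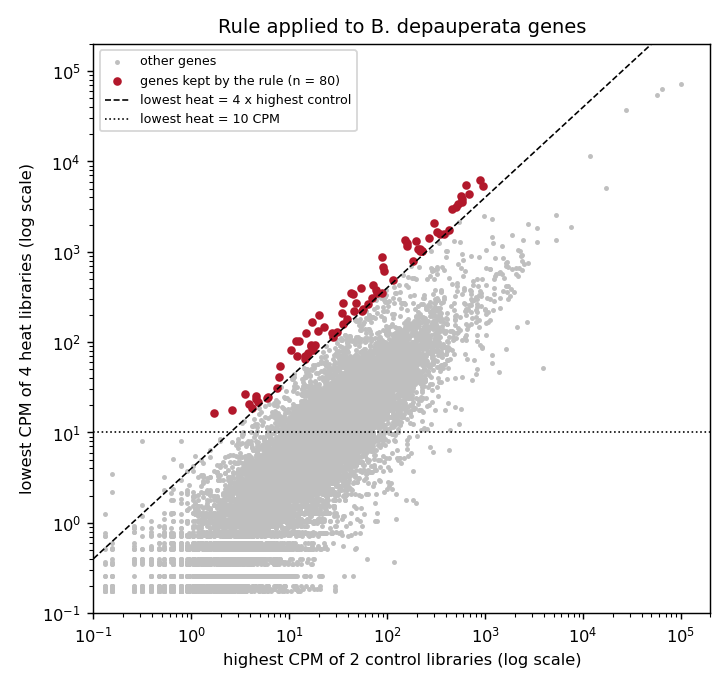
The rule in *B. depauperata*: for each gene, the lowest CPM of the 4 heat libraries (vertical, log scale) against the highest CPM of the 2 control libraries (horizontal, log scale). Red points are the 80 genes kept, grey points the other genes above 0 on both axes, the dashed line marks 4 times the highest control and the dotted line 10 CPM; the red points reach from 16.3 CPM upwards, so the dotted line bounds none of them.

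The ratio of the lowest heat to the highest control CPM ran from 4.01 to 9.95, with a median of 5.44. Just inside the rule were Bostr.3877s0037 (4.01), Bostr.2902s0273 (4.02) and Bostr.20903s0156 (4.02), and just outside were Bostr.7867s1215 (3.99), Bostr.1166s0002 (3.96, with 2131 CPM in its lowest heat library) and Bostr.7903s0109 (3.94). Near the 10 CPM floor the nearest genes inside had 16.3, 17.8 and 18.9 CPM in their lowest heat library, and the nearest outside, Bostr.22252s0319, had 8.48 CPM. Applied to the B/HS libraries alone the rule kept 88 genes and to the A/HS libraries alone 182 genes, so 8 genes met it for B/HS only and 102 for A/HS only. The mirrored rule for genes lowered by both regimes kept 90. By their identifiers the 80 genes lay on 47 scaffolds, 19 of which carried 2 or more of them and none more than 4.

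Each species was fitted with edgeR's quasi-likelihood test, and DE calls needed a 4-fold change or more together with an adjusted *P*-value (Benjamini–Hochberg) below 0.05. All 80 genes passed the filter on low counts. They were called higher than control in 80 of 80 cases after A/HS and in 80 of 80 after B/HS, where 3.99 % and 2.27 % of the 17839 tested genes were called higher. The rule used these same contrasts, so the counts describe the choice and nothing is read from them. The fitted log2 fold change over control ran from 3.01 to 5.99 after A/HS (median 4.32) and from 2.71 to 4.53 after B/HS (median 3.79). The B/HS calls depended on 2 libraries: without EW9 or without EW11, 0 of the 80 were called. These fits left 1 library in a group, and the genes called higher over the whole table fell in number likewise.

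The replicates of each regime differed in a shared direction over most of the 80 genes. On library-total CPM, EW10 was above EW9 in 77 of the 80, against 61.0 % of all tested genes. The median EW10 to EW9 ratio was 2.19 in the 80 genes, against 1.09 in all tested genes. On the TMM scale the medians were 2.02 and 1.01. The A/HS library EW14 exceeded EW13 in 70 of the 80 genes on the TMM scale, against 49.1 % of all tested genes, with a median ratio of 1.49. On library-total CPM EW14 exceeded EW13 in 54 of the 80, against 29.1 % of all tested genes. The B/HS library EW11 exceeded EW12 in 72 of the 80 on the TMM scale, against 49.0 % of all tested genes, with a median ratio of 1.44. So in each regime 1 replicate was higher in most of the 80 genes, and EW10, EW14 and EW11 were the higher ones. EW10 set the highest control value in 77 of the 80 genes and EW12 the lowest heat value in 52.

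**Figure D3:**
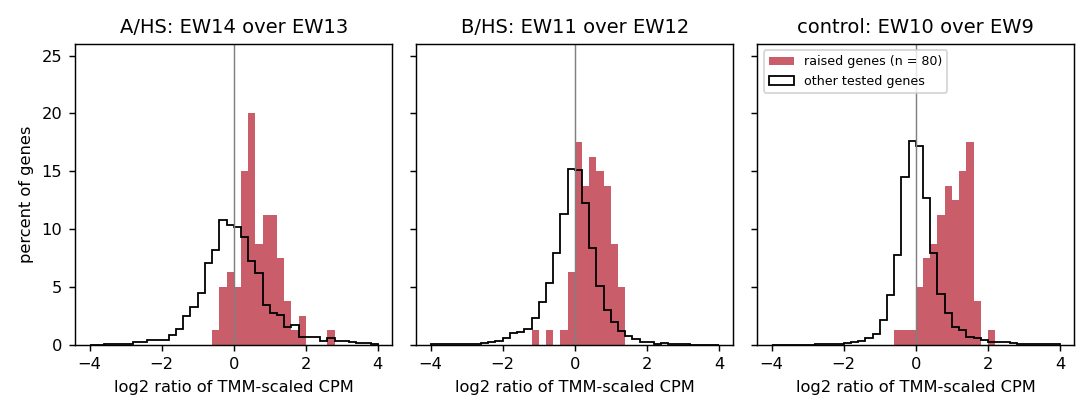
Distribution of the log2 ratio between the 2 replicates of A/HS (EW14 over EW13), B/HS (EW11 over EW12) and control (EW10 over EW9), in TMM-scaled CPM. Filled bars are the 80 raised genes and the black outline the other tested genes, as a percent of genes; the raised genes lie to the right of 0 in 70 (A/HS), 72 (B/HS) and 77 (control) of the 80, whereas the outline is centred near 0.

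By class of heat level, the median control difference was widest in the genes with the most counts. The median EW10 to EW9 ratio was 2.61 in the 28 genes of at least 1000 CPM in heat, 1.98 in the 37 of 100 to 1000 CPM and 1.44 in the 15 of less than 100 CPM, although the largest single ratio, 4.69, was in that last class. Across the 80 genes the log2 ratio of EW10 to EW9 had a Pearson correlation of 0.478 and a Spearman correlation of 0.472 with the log2 mean heat CPM. This is a description across genes that share the same libraries. By title, EW10 carries the same index tag as the *A. thaliana* control library W2, and EW9 the same as W1. The heat libraries share tags between the species in the same way, and all titles carry the same lane number. The titles do not show that the 2 species shared a run. W2 was above W1 on the TMM scale in 5 of the 6 *A. thaliana* homologs, against 53.7 % of all tested *A. thaliana* genes. The part of tag, plant batch or temperature in the difference between replicates was not tested.

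A/HS was then compared with B/HS, a contrast that the rule did not use directly, although it requires both regimes to be high. No gene of the 80 passed the adjusted threshold, and 0 % of the 17839 tested genes did so (0 genes in edgeR, 2740 at an unadjusted *P*-value under 0.05, and 115 called by DESeq2). The smallest adjusted *P*-value among the 80 was 0.193. At an unadjusted *P*-value under 0.05, 13 of the 80 genes (16.2 %) were higher after A/HS and 0 lower, where 7.49 % of tested genes were higher. The fitted log2 fold change of A/HS over B/HS was positive in 74 of the 80, against 50.9 % of tested genes, and ran from -0.28 to 2.10. Its median was 0.44, against 0.01 in all tested genes. On the TMM scale the 2 A/HS libraries lay above both B/HS libraries in 28 of the 80 (35.0 %), against 22.0 % of tested genes, and below both in 0, against 22.8 %. In the other 52 the regimes overlapped. On library-total CPM, the A/HS libraries lay above both B/HS libraries in 22 of the 80, against 12.6 % of tested genes, and below both in 4, against 29.2 %. On that scale the mean after A/HS was higher in 60 of the 80, against 38.2 % of tested genes with a count in every library, and the median log2 ratio was 0.18 in the 80, against -0.18 in those genes.

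This lean to A/HS depended on EW14. Without EW14, 43 of the 80 were positive. The median log2 fold change of the 80 was then 0.06, against -0.03 in all tested genes. Fewer of the 80 were at an unadjusted edgeR *P*-value under 0.05 without EW14, without EW12 or without EW11. The same held for all tested genes, and these fits left 1 library in a group. Without EW12 the median was 0.20 with 60 positive, against a median of 0.03 in all tested genes. Without EW11 it was 0.75 with 79 positive, against 0.04 in all tested genes. Without EW13 the median was 0.75 with 77 positive, against a median of -0.06 in all tested genes. The log2 fold change was then 2.85 in Bostr.7128s0087 and 2.335 in Bostr.6758s0051. EW14 had the fewest counts and the lowest TMM factor of the 6 libraries, and their part in the lean was not tested. By level, the median log2 fold change with all libraries was 0.40 in the 28 genes of at least 1000 CPM, 0.45 in the 37 of 100 to 1000 CPM and 0.76 in the 15 of less than 100 CPM.

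**Figure D4:**
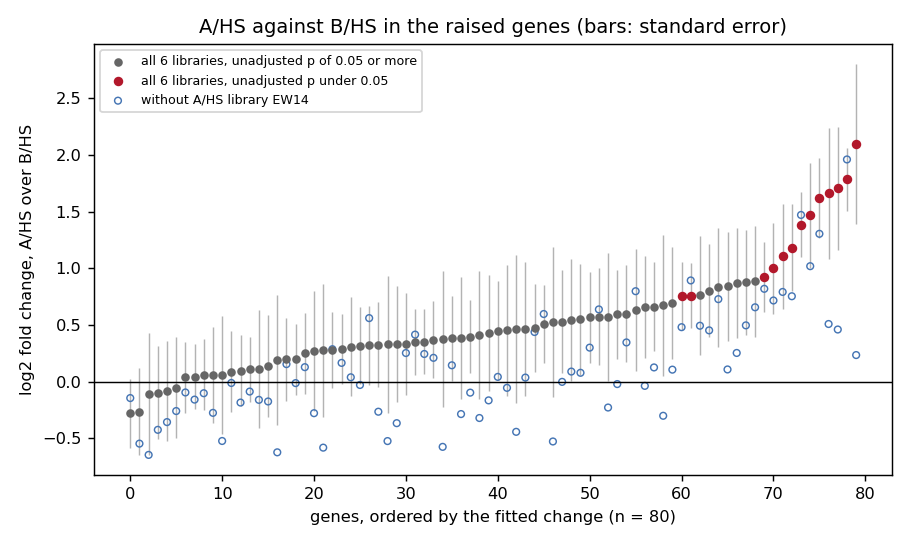
Fitted log2 fold change of A/HS over B/HS (vertical) for the 80 raised genes, ordered by its value (horizontal). Filled points are the fit on all 6 libraries with the standard error as bars, red where the unadjusted *P*-value was under 0.05 (13 genes), and open circles the fit without A/HS library EW14; filled points are above 0 in 74 genes and open circles in 43.

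Of the 4 genes with the highest fitted change of A/HS over B/HS, 3 were high in EW14 and much lower in EW13. Bostr.7128s0087 had 43.0 and 204 CPM after A/HS, 26.8 and 47.0 CPM after B/HS, and 2.97 and 3.52 CPM in control. Its fitted log2 fold change of A/HS over B/HS was 2.10 ± 0.71 (SE, edgeR adjusted *P*-value 0.246), and 0.23 without EW14, so it depended on EW14. Bostr.6758s0051 had 33.3 and 94.3 CPM after A/HS, 24.97 and 23.49 CPM after B/HS, and 2.82 and 4.57 CPM in control, with a log2 fold change of 1.71 ± 0.54 (adjusted *P*-value 0.233) that was 0.46 without EW14. Bostr.6251s0100 had 28.9 and 75.5 CPM after A/HS, 22.8 and 17.8 CPM after B/HS, and 0.783 and 2.61 CPM in control, with 1.66 ± 0.58 (adjusted *P*-value 0.254) and 0.51 without EW14. In 3 other genes most or all of the fitted change was there without that library. Bostr.25463s0293, whose values are given above, had a log2 fold change of 1.78 ± 0.28 (adjusted *P*-value 0.193), and 1.96 without EW14. Bostr.26675s0446, singled out after its values were seen, had 153 and 171 CPM after A/HS, 69.6 and 54.4 CPM after B/HS, and 4.07 and 7.96 CPM in control, with 1.62 ± 0.35 (adjusted *P*-value 0.199), and 1.30 without EW14. Bostr.14419s0053, singled out likewise, had 251 and 166 CPM after A/HS, 105.8 and 74.9 CPM after B/HS, and 13.8 and 15.7 CPM in control, with 1.38 ± 0.29 (adjusted *P*-value 0.196), and 1.47 without EW14. These last 3 passed an adjusted *P*-value of 0.05 in DESeq2 (0.0008, 0.00552 and 0.00444), at less than a 4-fold change.

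At the other end, 6 of the 80 genes had a negative log2 fold change of A/HS over B/HS. Bostr.25542s0221 had 209 and 128 CPM after A/HS, 275 and 186 CPM after B/HS, and 22.5 and 30.4 CPM in control, with a log2 fold change of -0.28 ± 0.31 (edgeR adjusted *P*-value 0.691). Bostr.11793s0009 had 67.5 and 72.6 CPM after A/HS, 132 and 64.3 CPM after B/HS, and 11.1 and 14.5 CPM in control, with -0.27 ± 0.38 (adjusted *P*-value 0.772). The regimes overlapped in both genes. Bostr.7867s0596 had 3580 and 5106 CPM after A/HS, 6163 and 5039 CPM after B/HS, and 193 and 582 CPM in control. Bostr.9638s0051 had 208 and 236 CPM after A/HS, 343 and 214 CPM after B/HS, and 15.97 and 34.31 CPM in control. Their log2 fold changes of -0.11 ± 0.54 and -0.10 ± 0.41 were smaller than their errors.

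For the 6 genes with an *A. thaliana* identifier, the other species gave values that the rule had not used. Bostr.25219s0220, paired with *SR45a*, had 549 and 472 CPM after A/HS, 353 and 269 CPM after B/HS, and 31.2 and 47.5 CPM in control. The fitted log2 fold change of A/HS over B/HS was 0.92 ± 0.31 (edgeR adjusted *P*-value 0.246), with both A/HS libraries above both B/HS libraries. Bostr.19424s1133, paired with *SCL33*, had 213 and 158 CPM after A/HS, 219 and 128 CPM after B/HS, and 18.9 and 27.5 CPM in control, and its heat regimes overlapped. *SCL33* has a further identifier, Bostr.6758s0042, that did not meet the rule: it had 32.1 and 21.2 CPM after A/HS, 33.2 and 41.3 CPM after B/HS, and 17.4 and 17.0 CPM in control. Its log2 fold changes over control were 1.23 ± 0.26 after A/HS (adjusted *P*-value 0.0175) and 1.52 ± 0.26 after B/HS (adjusted *P*-value 0.0145), against 3.60 and 3.33 in Bostr.19424s1133. So the 2 identifiers paired with this splicing factor differed in the size of their change, and reads shared between near-identical copies cannot be told apart here.

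Bostr.22252s0175, paired with the co-chaperone *ATERDJ3A*, had 492 and 519 CPM after A/HS, 640.4 and 311 CPM after B/HS, and 37.6 and 69.5 CPM in control. Bostr.26833s0438, paired with the chaperone-binding AT5G58110, had 833 and 656 CPM after A/HS, 734 and 492 CPM after B/HS, and 55.1 and 116 CPM in control. In both genes the heat regimes overlapped. Bostr.20055s0069, paired with AT5G11680, had 230.3 and 213 CPM after A/HS, 219 and 179 CPM after B/HS, and 19.7 and 39.0 CPM in control. Bostr.30275s0442, paired with AT4G19645, had 50.6 and 78.8 CPM after A/HS, 61.50 and 40.97 CPM after B/HS, and 5.48 and 7.83 CPM in control. The log2 fold changes of A/HS over B/HS in Bostr.19424s1133, Bostr.22252s0175, Bostr.26833s0438, Bostr.20055s0069 and Bostr.30275s0442 lay between 0.28 and 0.59, and none passed the threshold.

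In *A. thaliana* the fitted change of each homolog over control was smaller after A/HS than after B/HS. *SR45a* (chromosome 1, 2257384 to 2260187, minus strand in TAIR10.1) had 180.2 and 206 TMM-scaled CPM after A/HS, 337 and 253 after B/HS, and 26.6 and 39.9 in control. Its log2 fold change over control was 2.53 ± 0.25 after A/HS (edgeR adjusted *P*-value 1.15e-05) and 3.15 ± 0.26 after B/HS (adjusted *P*-value 2.92e-06). *ATERDJ3A* (chromosome 3, 2737297 to 2740549, plus strand) had 78.1 and 118 CPM after A/HS, 197 and 157 after B/HS, and 9.52 and 20.2 in control, and it rose by 2.70 ± 0.32 after A/HS (adjusted *P*-value 3.82e-05) and 3.55 ± 0.33 after B/HS (adjusted *P*-value 5.19e-06). AT5G11680 (chromosome 5, 3758809 to 3760913, plus strand) had 173 and 209 CPM after A/HS, 368 and 286 after B/HS, and 21.5 and 42.5 in control, and it rose by 2.57 ± 0.30 after A/HS (adjusted *P*-value 3.46e-05) and 3.34 ± 0.31 after B/HS (adjusted *P*-value 5.08e-06). All 3 passed both thresholds after both regimes.

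AT5G58110 (chromosome 5, 23515150 to 23516751, plus strand) had 144 and 181 TMM-scaled CPM after A/HS, 216 and 193 after B/HS, and 39.3 and 44.8 in control. It rose by 1.95 ± 0.21 after A/HS (edgeR adjusted *P*-value 2.09e-05), just under 4-fold, and by 2.28 ± 0.21 after B/HS (adjusted *P*-value 5.51e-06). *SCL33* (chromosome 1, 20629698 to 20633007, plus strand) had 24.8 and 22.3 CPM after A/HS, 40.8 and 27.6 after B/HS, and 10.9 and 9.35 in control, and it rose by 1.22 ± 0.22 after A/HS (adjusted *P*-value 0.000965) and 1.76 ± 0.22 after B/HS (adjusted *P*-value 4.72e-05), under 4-fold. AT4G19645 (chromosome 4, 10689758 to 10692831, minus strand) had 2.84 and 5.64 CPM after A/HS, 5.83 and 7.74 after B/HS, and 1.77 and 3.06 in control. Its log2 fold change was 0.76 ± 0.36 after A/HS (edgeR adjusted *P*-value 0.122) and 1.45 ± 0.35 after B/HS (adjusted *P*-value 0.00575, and 0.0528 without W4), both under 4-fold. It had the fewest counts, between 19 and 100 per library. With the 4-fold limit, 3 of the 6 homologs were called higher after A/HS and 4 after B/HS, where 2.92 % and 3.76 % of the 17669 tested *A. thaliana* genes were. By the adjusted *P*-value alone, 5 were higher after A/HS, against 18.3 % of tested genes.

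**Figure D5:**
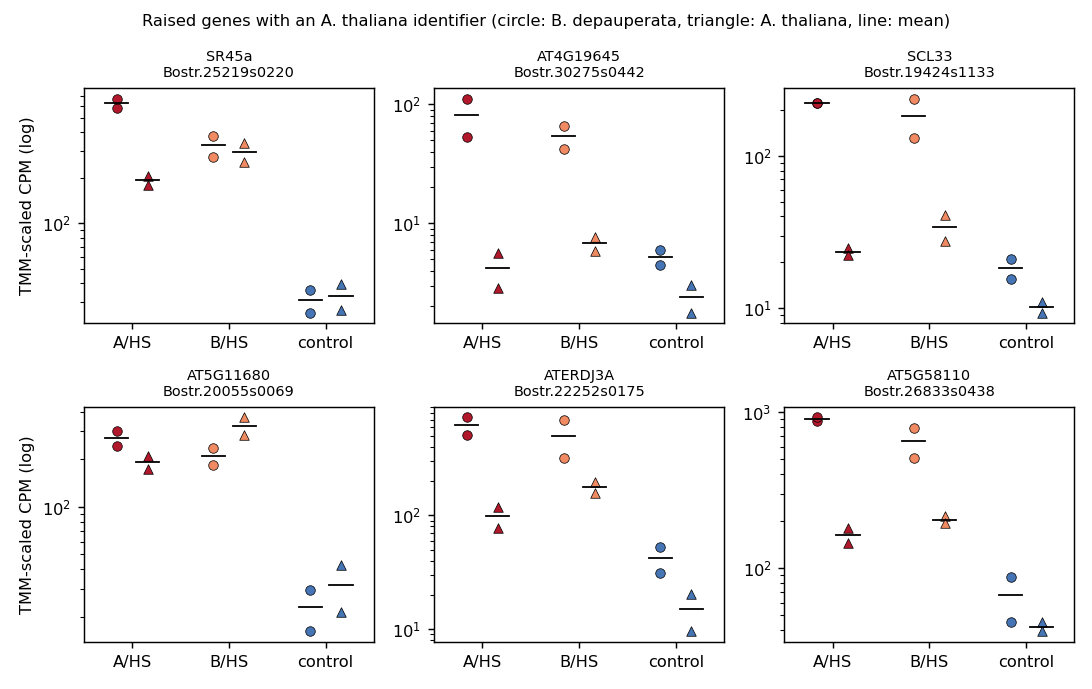
TMM-scaled CPM (log scale) of the 6 raised genes with an *A. thaliana* identifier, by regime (A/HS, B/HS, control from left to right). Circles are the 2 *B. depauperata* libraries, triangles the 2 *A. thaliana* libraries and black lines their means; levels are scaled within a species and are not compared between species. In *A. thaliana* all 6 means are lower after A/HS than after B/HS, and in *B. depauperata* all 6 are higher after A/HS.

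The fitted order of the 2 regimes was then set side by side in the species. The log2 fold change of A/HS over B/HS was positive in all 6 *B. depauperata* genes with all libraries. It was -0.022 in Bostr.30275s0442 without EW14, and -0.10 in Bostr.19424s1133 and -0.16 in Bostr.22252s0175 without EW12. In *A. thaliana* it was negative in all 6 homologs, from -0.85 (*ATERDJ3A*) to -0.33 (AT5G58110), where 48.8 % of tested genes were negative. On the TMM scale both A/HS libraries lay below both B/HS libraries in 6 of the 6, against 29.6 % of tested genes. On library-total CPM the regimes overlapped in *SR45a*, AT5G58110 and AT4G19645, so the separation depended on the scale. None of the 6 *A. thaliana* changes passed the threshold (edgeR adjusted *P*-values between 0.0707 and 0.294), and 1.78 % of tested genes did. The difference between the species was tested as an interaction in edgeR over 1643 pairs of identifiers, a test added after the values had been seen. *SCL33* had 2 identifiers in *B. depauperata* and was left out. The log2 fold change of A/HS over B/HS was higher in *B. depauperata* than in *A. thaliana* by 1.58 ± 0.41 for *SR45a* (adjusted *P*-value 0.101), 1.34 ± 0.59 for AT4G19645 (0.254) and 1.22 ± 0.59 for *ATERDJ3A* (0.294). It was higher by 1.19 ± 0.49 for AT5G11680 (0.236) and 0.84 ± 0.45 for AT5G58110 (0.338). None passed the adjusted threshold, nor did any of the 1643 pairs, of which 289 had an unadjusted *P*-value under 0.05.

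A list of 87 *A. thaliana* heat shock factors, heat shock proteins and co-chaperones gave the wider setting. Of the 81 tested in *A. thaliana*, 40 were called higher after A/HS and 56 after B/HS and 0 lower after either, with median log2 fold changes of 1.97 and 2.76. Over all tested *A. thaliana* genes, 2.92 % were called higher after A/HS and 3.76 % after B/HS. Only 8 of the 87 could be paired with a *B. depauperata* identifier, and 1 of these, that of *ATERDJ3A*, met the rule. In *B. depauperata* 5 of the 8 were called higher after each regime, against 3.99 % of tested genes after A/HS and 2.27 % after B/HS. In the other 4 of these the lowest heat value was less than 4 times the highest control value. Bostr.22252s0132, paired with *Fes1A*, a nucleotide exchange factor of HSP70, had 1413 and 1427 CPM after A/HS, 1387 and 431 CPM after B/HS, and 72.0 and 157 CPM in control. Its ratio of lowest heat to highest control was 2.74, set by EW12. Bostr.19424s0107, paired with *ROF1*, an FKBP-type co-chaperone of HSP90, had 2918 and 2259 CPM after A/HS, 2167 and 1317 CPM after B/HS, and 316 and 477 CPM in control, a ratio of 2.76. The ratios were 2.72 for Bostr.19424s0205 (*HSP60*, a mitochondrial chaperonin) and 2.29 for Bostr.7867s0225 (*SHD*, the HSP90 of the endoplasmic reticulum).

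The remaining 3 of the 8 were not called. Bostr.30275s0365 (*HSFA4A*, a heat shock factor) had 17.7 and 18.9 CPM after A/HS, 15.8 and 15.0 CPM after B/HS, and 9.39 and 16.2 CPM in control. Its log2 fold change over control was 1.16 ± 0.34 after A/HS (edgeR adjusted *P*-value 0.0497), under 4-fold. Bostr.30275s0239 (*HSF1*, the heat shock factor also called HSFA1A) had 6.77 and 9.82 CPM after A/HS, 11.9 and 12.7 CPM after B/HS, and 7.98 and 11.1 CPM in control. Bostr.6758s0028 (*CPN60B*, a subunit of the chloroplast chaperonin) had 461 and 120.4 CPM after A/HS, 338 and 278 CPM after B/HS, and 827 and 609.8 CPM in control. Its fitted log2 fold changes over control were -0.81 ± 0.48 after A/HS and -0.82 ± 0.48 after B/HS (edgeR adjusted *P*-values 0.271 and 0.33). Both changes were negative, in contrast to those of the 5 chaperones and co-chaperones that were called.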

How the data were processed

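RNA-seq libraries of total RNA were made for both species. Per the labels and the study's methods, the authors trimmed with fastx toolkit, used TopHat for alignment (1.4.1 in the submitters' processing notes) and deposited whole-number counts of reads per gene, without normalization. The counting program and its treatment of strand and of reads with several matches are not given in the sources used here. Library totals and TMM factors were computed from these counts. The rule used CPM on the library total. edgeR 4.0.16 (R 4.3.3) was run on the counts as deposited, with TMM, filterByExpr, quasi-likelihood tests and adjustment (Benjamini–Hochberg) over all tested genes, on the 6 libraries of a species. DESeq2 1.42.0, which the authors named, was an alternative. Standard errors were the size of the log2 fold change over the root of the F statistic. The procedure was tested on simulated counts drawn separately for each gene. Those counts held no shift shared by the genes of a library, so that test does not cover the shared replicate differences described above. With 2 libraries against 2, an exact permutation test cannot go below a two-sided *P*-value of 0.333. The members and the gene lists were chosen with earlier results of these data known. Named genes were all members with an *A. thaliana* identifier, the 6 with the widest ratio, the 6 with the highest heat CPM, and the 4 at each end of A/HS over B/HS. Identifiers were paired only where the study's splicing table lists both, and that table was held in part. No *B. stricta* genome was used here.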

Additional observations from a re-analysis of the deposited data

How the results depend on the processing

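The call of the 80 genes as higher after B/HS than in control ranged from 0 to 80 genes when each library was left out in turn, with 0 without EW9 and 0 without EW11. The comparison of A/HS with B/HS called 0 genes of the 80. It called 1 gene (Bostr.7128s0087) when every gene with at least 1 count was tested, where 0.984 % of 23993 genes were called. The calls changed when EW13 was left out. By the adjusted *P*-value alone this comparison called 0 of the 80 in edgeR, 7 in edgeR with every gene of at least 1 count, and 3 in DESeq2. The calls of the *A. thaliana* homologs after A/HS were 3 with the 4-fold limit and 5 by the adjusted *P*-value alone. The rule itself kept 151 genes on TMM-scaled CPM, 310 at 2 times and 10 at 8 times the highest control, and between 81 and 202 with a library left out (202 without EW10, 157 without EW12). The species difference was called in 0 pairs, and in between 0 and 54 with a library left out (54 without EW11, 51 without EW13, 3 without W4). With each library left out, the log2 fold change of A/HS over B/HS changed sign in 14 named genes: Bostr.30275s0442 (-0.022 to 0.99), Bostr.19424s1133 (-0.10 to 0.76), Bostr.22252s0175 (-0.16 to 0.96), Bostr.9638s0086 (-0.17 to 0.80), Bostr.7867s0141 (-0.19 to 0.29), Bostr.7305s0058 (-0.22 to 0.52), Bostr.25463s0294 (-0.32 to 0.85), Bostr.27991s0212 (-0.58 to 0.90), Bostr.26833s0265 (-0.58 to 0.77), Bostr.3359s0037 (-0.62 to 0.66), Bostr.25542s0221 (-0.58 to 0.065), Bostr.11793s0009 (-0.73 to 0.38), Bostr.7867s0596 (-0.65 to 0.24) and Bostr.9638s0051 (-0.44 to 0.32). The cause of these changes was not tested. The other fits run (DESeq2, RLE, other filters, fewer libraries) covered all tested genes. The direction was compared only for the 25 *B. depauperata* genes named by pairing, ratio, heat CPM or A/HS over B/HS. It turned in none of them. Other genes given in the text, among them Bostr.26675s0446, Bostr.14419s0053 and Bostr.6758s0042, were not compared in this way. On mean library-total CPM A/HS was below B/HS in 4 of these 25 genes although the fit was positive. They were Bostr.7867s0141 (106 and 117), Bostr.7305s0058 (7416 and 8004), Bostr.3359s0037 (5554 and 5951) and Bostr.26833s0265 (6106 and 6180). Over all 80 genes the mean on that scale was higher after A/HS in 60, whereas the fit was positive in 74. Libraries of 3869082 counts at the lowest and 2 per regime limit the precision. No paired analysis was possible because the labels carry no replicate numbers, which were given in accession order only.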
